A study of Caenorhabditis elegans with 6 samples.

Results

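The arrays carried oligos for miRNAs that mark tissues outside the germ line, and these serve as a somatic reference for a comparison of germ lines. The miRNAs chosen were miR-1 of muscle, miR-60 of the intestine, miR-124 and lsy-6 of neurons, and miR-228 of glia and epidermis. Their spots were found by target name, and the miRNAs were chosen with earlier results of these data known. Of these 5 miRNAs, 4 had spots under their name, with 16 of the 576 spots of an array, among 108 miRNA names in all. lsy-6 had 0 spots under that name and was not analysed here.

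RNA came from whole adult Caenorhabditis elegans of 2 genotypes, fem-2(b245ts) and fem-3(q20ts). Both strains carry temperature-sensitive alleles and were kept at 25 °C, and both were collected 24 hours past the late L4 larval stage, on day 1 of adulthood. By general knowledge, fem-2(b245ts) at this temperature makes oocytes without sperm, whereas the gain-of-function allele fem-3(q20ts) makes sperm without oocytes. Each genotype had 2 biological replicates on 3 arrays: replicate 1 was hybridised to 2 technical arrays and replicate 2 to 1 array. Each sample was a population of animals, and no wild-type group entered the comparison. Arrays that share a replicate number also share a part of their names in the labels, whose meaning the labels do not give, so differences are shown within each replicate number as well. Because whole animals were used, fewer cells of a tissue and less RNA per cell cannot be told apart, and the tissue of origin of a signal was not measured.

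A miRNA is a short RNA that guides an Argonaute protein to messenger RNAs with matching sequence, mainly through the seed near its 5′ end, and lowers their translation or stability. Some miRNAs are confined largely to one tissue. miR-1 is the conserved muscle miRNA, and in worms it tunes acetylcholine signalling at the neuromuscular junction. miR-60 is known from the intestine, and its loss affects the tolerance of oxidative stress. miR-124 is the conserved neuronal miRNA, found in worms in ciliated sensory neurons. miR-228 is known from glia and epidermis. lsy-6 acts in the left ASE taste neuron, where it represses cog-1. Their genes are dispersed: in the RefSeq annotation of WBcel235, mir-1 lies on chromosome I, mir-60 on II, mir-124 and mir-228 on IV, and lsy-6 on V. The gene of miR-124 lies within the span of trpa-1, a gene for a sensory ion channel. No other annotated gene spanned any of the other 4.

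Values below are the deposited linear spot intensities, which were scaled to the same total on each array. An oligo's level on an array is the mean of its 4 spots. Levels are compared for the same oligo between arrays only, since the brightness of different oligos also depends on how well each hybridises. As a measure of background, each array held 32 Buffer spots, and their 95th percentile ranged from 19.0 to 127 between arrays. Each of the 96 spot values of the 4 miRNAs exceeded this level of its own array. The margin was widest for miR-1, whose level was 8.10 to 75.7 times the Buffer level, and narrowest for miR-228, at 1.25 to 17.1 times. miR-60 was at 3.73 to 29.8 times and miR-124 at 1.53 to 17.4 times. The low ends all came from the fem-2(b245ts) arrays of replicate 1, which had the highest Buffer levels, at 127 and 114. No spot of the 4 was saturated on the 4 arrays with a scanner file, and the signal-to-noise score was at or under 3 for 1 of their 64 spots, a spot of miR-124.

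None of the tissue miRNAs passed the test between the genotypes. In limma with Benjamini-Hochberg adjustment over 94 tested miRNAs, 0 of the 4 had an adjusted p under 0.05, against 8.51% of all tested miRNAs (8 of 94). At an unadjusted p under 0.05 the count was also 0 of 4, against 10.6% of all tested miRNAs in either direction (10 of 94). miR-60 was brighter in fem-3(q20ts) on each array, miR-124 and miR-228 had higher means there, and miR-1 had a slightly lower mean. The differences of the 4 had a median of 0.42 on the log2 scale, and those of all tested miRNAs a median of 0.14.

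**Figure D1:**
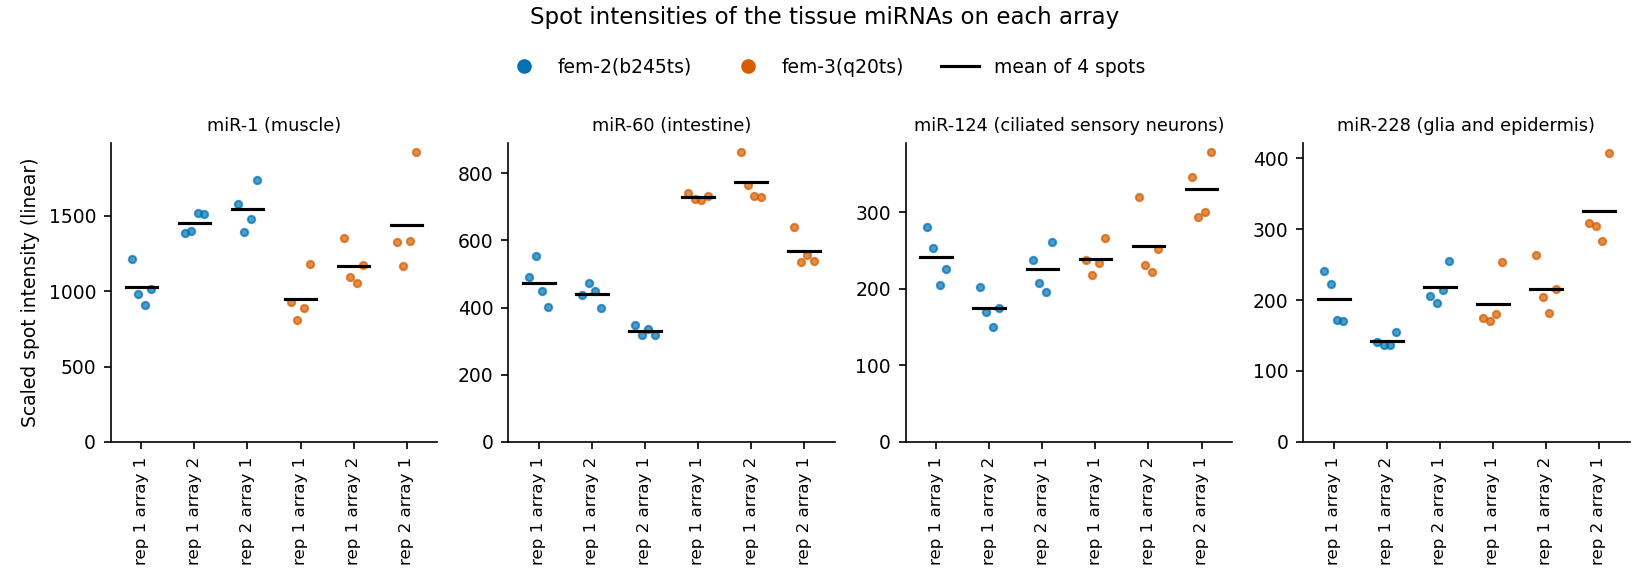
Scaled spot intensity (linear, from 0) of 4 tissue miRNAs on the 6 arrays, with points for the 4 spots of an array and bars for their mean. Blue is fem-2(b245ts) and orange is fem-3(q20ts). The miR-60 means of fem-3(q20ts), from 567 to 772, lie above those of fem-2(b245ts), from 329 to 474, whereas the means of the other 3 overlap.

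miR-1, the muscle miRNA, had intensities of 1028 and 1454 on the technical arrays of fem-2(b245ts) replicate 1 and 1547 on the array of replicate 2. In fem-3(q20ts) it had 949.8 and 1169 in replicate 1 and 1438 in replicate 2. The genotypes overlapped, and the lowest value of each came from the first technical array of replicate 1. Averaged over biological samples, miR-1 was 1394 ± 216 in the fem-2(b245ts) group and 1249 ± 268 in the fem-3(q20ts) group (SD, n = 2 each). The log2 difference, fem-3(q20ts) minus fem-2(b245ts), was -0.17 (SE 0.34; limma adjusted p = 0.866). Its 95% confidence interval ran from -1.03 to 0.69, which is 0.489 to 1.61 times the fem-2(b245ts) level. Within the replicate numbers the difference was -0.22 and -0.13, and without fem-3(q20ts) replicate 1 it was 0.043. The technical arrays of a genotype differed by more than the genotypes did, at 0.51 for fem-2(b245ts) and 0.31 for fem-3(q20ts).

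miR-60, the intestinal miRNA, had intensities of 474 and 440.2 on the arrays of fem-2(b245ts) replicate 1 and 329 in replicate 2. In fem-3(q20ts) it had 729 and 772 in replicate 1 and 567 in replicate 2. All 3 fem-3(q20ts) arrays were above all 3 fem-2(b245ts) arrays, which was so for 1 of the 4 tissue miRNAs and for 16.0% of all tested miRNAs. The means were 393 ± 90.1 and 659 ± 129.8 (SD, n = 2 each), a 1.68-fold higher level in fem-3(q20ts). This log2 difference of 0.75 (SE 0.35) had an unadjusted limma p of 0.0821 and an adjusted p of 0.390, so the test was not passed. It ranked 6 of 94 from the highest, and its 95% interval ran from -0.14 to 1.64, or 0.909 to 3.12 times the fem-2(b245ts) level. The difference was 0.72 in replicate 1 and 0.78 in replicate 2. Technical arrays of miR-60 were close, at -0.098 for fem-2(b245ts) and 0.080 for fem-3(q20ts), array 2 minus array 1. The spread of miR-60 lay between the biological replicates: replicate 2 was lower than replicate 1 by 0.47 for fem-2(b245ts) and by 0.41 for fem-3(q20ts), where the median of all tested miRNAs was higher by 0.32 and 0.26.

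miR-124, the neuronal miRNA, had intensities of 241 and 175 in fem-2(b245ts) replicate 1 and 226 in replicate 2. In fem-3(q20ts) the values were 239 and 257 in replicate 1 and 330.1 in replicate 2. The genotypes overlapped only through the first technical array of each, at 241 for the former genotype and 239 for the latter. The means were 217 ± 12.7 and 289 ± 58.2 (SD, n = 2 each), with a log2 difference of 0.41 (SE 0.32; limma adjusted p = 0.625) and a 95% interval from -0.41 to 1.23. It was 0.27 within replicate 1 and 0.55 within replicate 2. The technical arrays of fem-2(b245ts) differed by -0.47, as much in size as the genotypes did.

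miR-228, of glia and epidermis, had intensities of 201 and 142 in fem-2(b245ts) replicate 1 and 218 in replicate 2. In fem-3(q20ts) it had 195 and 216 in replicate 1 and 326 in replicate 2. The genotypes overlapped, and the array of fem-3(q20ts) replicate 2 stood above the other arrays. The means were 195 ± 32.4 and 266 ± 85.3 (SD, n = 2 each), with a log2 difference of 0.42 (SE 0.37; limma adjusted p = 0.635) and a 95% interval from -0.54 to 1.38. Without fem-3(q20ts) replicate 2 the difference was 0.086. Within the replicate numbers it was 0.27 and 0.58.

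**Figure D2:**
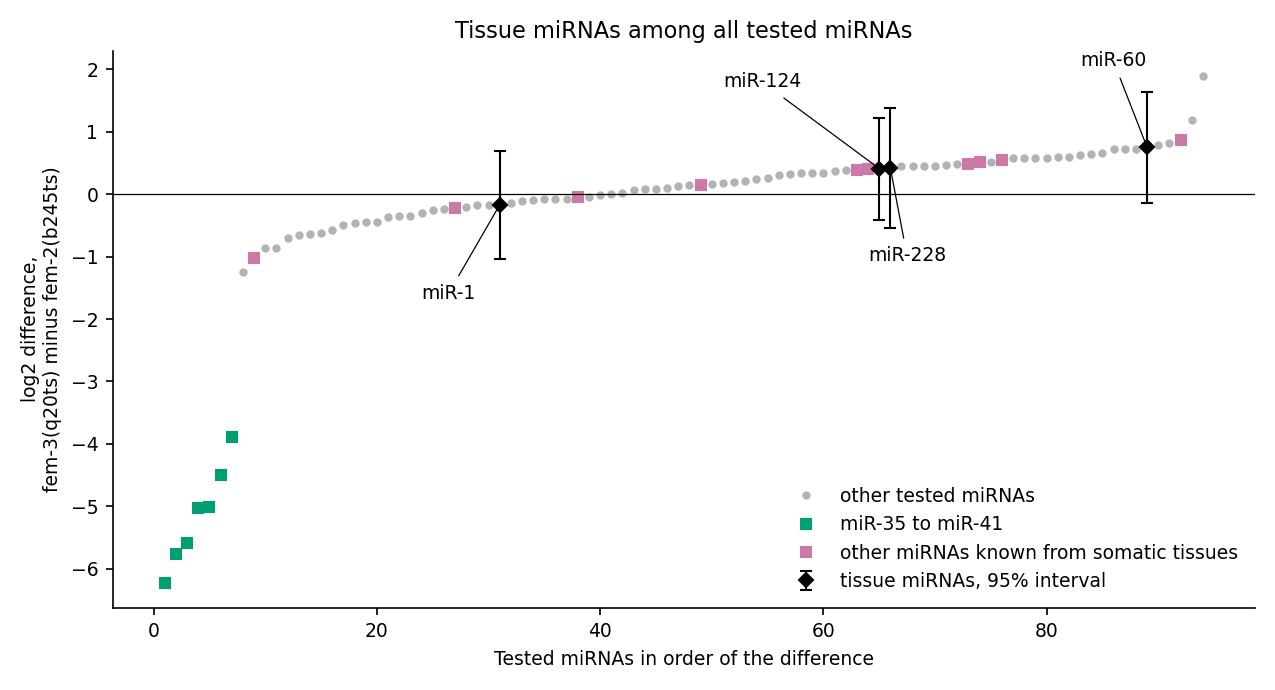
The log2 difference, fem-3(q20ts) minus fem-2(b245ts), of the 94 tested miRNAs in increasing order, each with 2 biological samples per genotype. Black diamonds are the 4 tissue miRNAs with 95% confidence intervals from limma, and each interval includes 0. Green squares are miR-35 to miR-41, from -6.22 to -3.90, and pink squares are other miRNAs known from somatic tissues.

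The repeat spots of an array set a floor on precision. The coefficient of variation over 4 spots was 1.40% to 13.8% for miR-60, 4.94% to 23.2% for miR-1, 8.54% to 17.2% for miR-124 and 6.23% to 20.2% for miR-228. The spots of miR-124 and miR-228 were printed side by side in the same row. Their genotype differences of 0.41 and 0.42 were nearly equal, and a link between layout and values was not tested. The log2 ratio of miR-124 to miR-228 on an array changed by -0.012 between the genotypes, with 0.0025 in replicate 1 and -0.027 in replicate 2. Ratios of 2 oligos on the same array cancel the scaling of that array, so all 6 pairs were examined in this way. The ratio of miR-1 to each of the other 3 was lower in fem-3(q20ts) in both replicates, with changes of -0.94 and -0.91 against miR-60, -0.49 and -0.68 against miR-124, and -0.49 and -0.70 against miR-228. With 2 samples against 2, an exact two-sided permutation test cannot give a p below 0.333. The 3 ratios of miR-1 had this p (0.667 after adjustment over the 6 pairs), and the others had 0.667 or 1. These 3 ratios all contain miR-1, so they are not separate observations. The share of all miRNA pairs with the smallest p was not computed, so the count is a description only.

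The tissue miRNAs were next set against the rest of their own array. The mean log2 value of 82 other tested miRNAs, which leaves out the miR-35 family and the 4 themselves, was subtracted in each biological sample. On this scale miR-60 was at 0.68 and -0.15 in fem-2(b245ts) replicates 1 and 2 and at 1.21 and 0.53 in fem-3(q20ts). The genotypes now overlapped, as fem-2(b245ts) replicate 1 was above fem-3(q20ts) replicate 2. The difference of 0.60 (exact permutation p = 0.667) was 0.53 and 0.68 within the replicate numbers, and it ranged from 0.19 without fem-2(b245ts) replicate 2 to 1.02 without fem-2(b245ts) replicate 1.

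miR-1 was at 2.10 and 2.08 in fem-2(b245ts) and at 1.69 and 1.85 in fem-3(q20ts), with no overlap and a difference of -0.32 (exact permutation p = 0.333, the smallest possible). miR-124 was at -0.47 and -0.70 against -0.40 and -0.25, a difference of 0.26. miR-228 was at -0.75 and -0.75 against -0.68 and -0.28, a difference of 0.28. For miR-124 and miR-228 the difference came mostly from replicate 2, with 0.45 and 0.48 there against 0.076 and 0.074 in replicate 1. Leaving out fem-2(b245ts) replicate 2 took miR-124 to 0.15, and leaving out fem-3(q20ts) replicate 2 took miR-228 to 0.075. Without fem-3(q20ts) replicate 1, miR-228 was at 0.48. Among all tested miRNAs 23.4% had both fem-3(q20ts) samples above both fem-2(b245ts) samples on this scale, and 22.3% had them below. The 2 of 4 tissue miRNAs above and the 1 of 4 below are to be read against these shares.

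**Figure D3:**
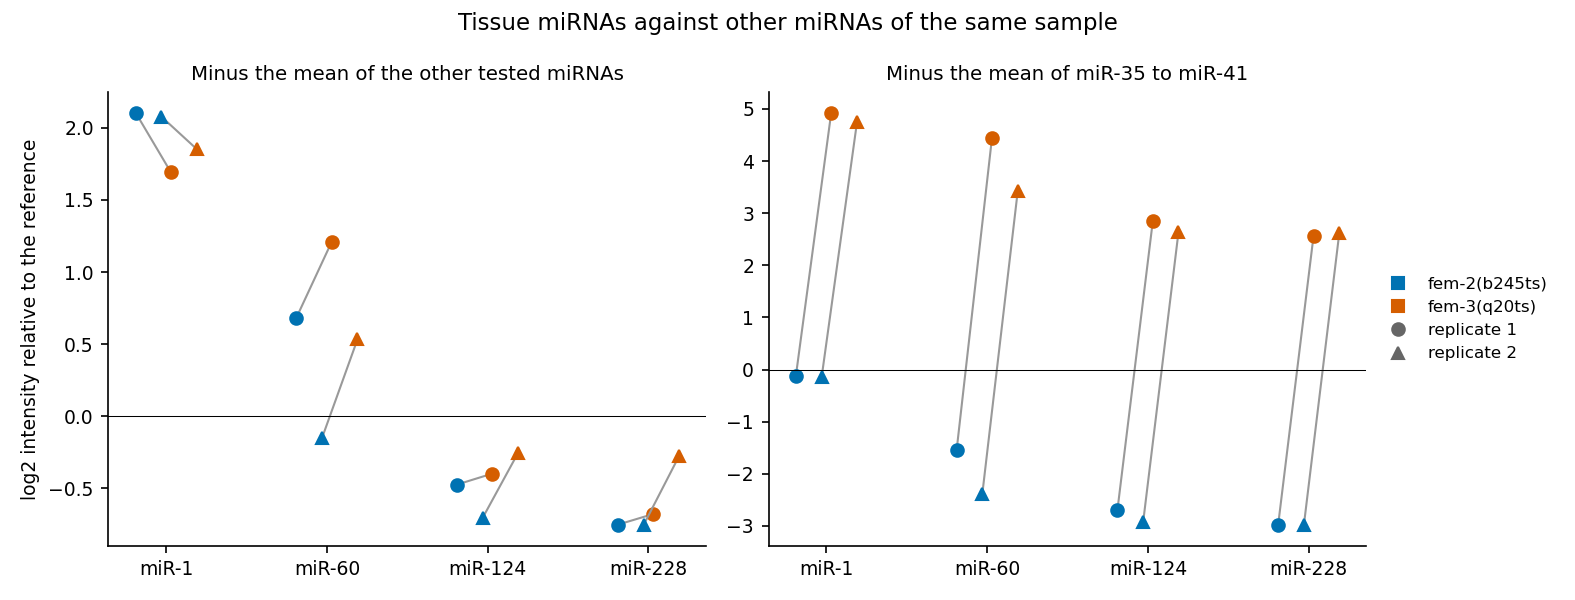
Log2 intensity of each tissue miRNA relative to the mean of 82 other tested miRNAs (left) and to the mean of miR-35 to miR-41 (right) in the same biological sample. Blue is fem-2(b245ts), orange is fem-3(q20ts), circles are replicate 1 and triangles replicate 2, and a line joins the genotypes of a replicate number. On the left the changes lie between -0.41 and 0.68, and on the right between 4.89 and 5.99.

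The oocyte and embryo miRNAs miR-35 to miR-41 provide the germline contrast. Relative to their mean, miR-1 was higher in fem-3(q20ts) by 5.05 in replicate 1 and 4.89 in replicate 2, and miR-60 by 5.99 and 5.80. For miR-124 the values were 5.54 and 5.57, and for miR-228 they were 5.54 and 5.59. These sizes follow mainly from the fall of miR-35 to miR-41, whose own log2 differences had a median of -5.03. In fem-3(q20ts), 4 of the 7 were not above the Buffer level on 1 or more of the 3 arrays, so the exact size is limited by the floor set on low intensities. The choice of tissue reference moved the germline contrast by less than 1 on the log2 scale, from a mean of 4.97 with miR-1 to 5.90 with miR-60. When each array was instead scaled on the mean of the 4 tissue miRNAs, miR-35 to miR-41 had a median of -5.38 and all 7 passed in limma. Of the 8 miRNAs past the threshold under the deposited scaling, 8 also passed under this one, which had 9 in all. This scaling moved the median of all tested miRNAs from 0.14 to -0.22, and the split of higher against lower in fem-3(q20ts) from 54 and 40 to 34 and 60.

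The share of the miRNA signal held by the miR-35 family differed between the genotypes. Its part in how the values depend on the scaling was not tested. All 8 members of that family together made up 12.0%, 14.3% and 14.0% of the summed miRNA intensity of the 3 fem-2(b245ts) arrays, against 0.385%, 0.452% and 0.546% for fem-3(q20ts). As a share of the summed miRNA signal, miR-60 made up 0.609%, 0.580% and 0.354% for fem-2(b245ts) and 0.821%, 0.868% and 0.596% for fem-3(q20ts). On that measure the genotypes overlapped, since 0.596% in fem-3(q20ts) replicate 2 is below 0.609%. miR-1 made up 1.32%, 1.91% and 1.66% against 1.07%, 1.31% and 1.51%.

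The level before scaling was known for replicate 1. The factors that took the background-subtracted intensities to the deposited ones were 1.10 and 0.946 for fem-2(b245ts), and 0.689 and 0.807 for fem-3(q20ts). Before scaling, miR-124 had 219 and 184 in fem-2(b245ts) against 347 and 318 in fem-3(q20ts), and miR-228 had 183 and 151 against 282 and 268. Neither pair overlapped, while after scaling both did. The total of all spots before scaling did not overlap either, at 359018 and 417847 for fem-2(b245ts) against 579809 and 489789 for fem-3(q20ts). How many of all miRNAs were without overlap before scaling was not examined, so this is not a trait of these miRNAs. miR-60 had 429.9 and 465 against 1058 and 957. miR-1 had 933 and 1537 against 1379 and 1449, which overlapped before and after scaling. The sources used here do not give the amount of RNA labelled or the scan setting of each array, and their part in these unscaled values was not tested.

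**Figure D4:**
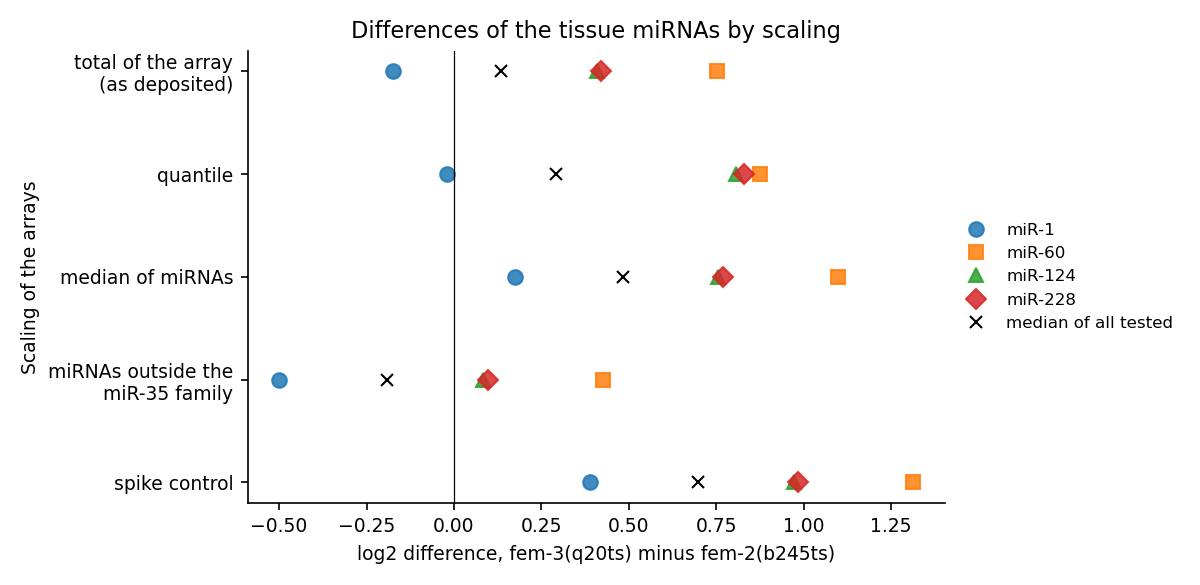
The log2 difference, fem-3(q20ts) minus fem-2(b245ts), of the tissue miRNAs under 5 scalings of the arrays, with the median of all 94 tested miRNAs as a cross. Under the lower 3 scalings every point moves by one amount, so miR-60 at 0.43 to 1.31 and miR-1 at -0.50 to 0.39 keep their distance, and after quantile normalization they are at 0.88 and -0.019.

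These scalings set where 0 lies. Median centring added 0.35 to the difference of every miRNA. Scaling on the summed miRNAs outside the miR-35 family added -0.33, and scaling on the spike control added 0.56. The second of these also leaves out all spots that are not miRNAs, so its amount is not that of the family alone. Since each added one amount, these 3 scalings could change neither the order of the 4 nor the distance of any of them from the rest. A change of sign under them is a move of the zero point. The median of all tested miRNAs moved from 0.14 under the deposited scaling to 0.48, -0.19 and 0.70. All tested miRNAs divided into 54 positive and 40 negative differences under the deposited scaling. The division was 72 and 22 after median centring, 37 and 57 on the miRNAs outside the family, and 78 and 16 on the spike control. Of the 4 tissue miRNAs, 3, 4, 3 and 4 were positive in the same order. miR-1 was the one whose sign moved with the zero point, at 0.17, -0.50 and 0.39 under the 3 scalings, while miR-60 was at 1.10, 0.43 and 1.31. miR-124 and miR-228 had their lowest values among these scalings, 0.084 and 0.096, on the miRNAs outside the family. Quantile normalization was the one setting among the 5 that could change the order. It gave -0.019 for miR-1, 0.81 for miR-124, 0.83 for miR-228 and 0.88 for miR-60, the same order as under the deposited scaling, with a median of 0.29 over all tested miRNAs, of which 69 were positive and 23 negative. The spike control, on 4 spots, had scaled intensities of 4695, 3461 and 3171 on the arrays of fem-2(b245ts) and 2622, 3107 and 2056 on those of fem-3(q20ts). It did not hold a constant level after the deposited scaling. These values include the factor of each array, in replicate 1 1.10 and 0.946 for fem-2(b245ts) and 0.689 and 0.807 for fem-3(q20ts). The spike level before scaling was not examined, so its own steadiness is not shown here.

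A further list held other miRNAs known from somatic tissues. Of 11 on it, 10 were tested, and 0 of 10 passed in limma, beside 8.51% of all tested miRNAs. miR-273, once linked to an ASE neuron, did not exceed the detection level. The differences of the 10 were positive for 7 and negative for 3, where 57.4% of all tested miRNAs were positive, and their median was 0.40, beside 0.14 for all tested miRNAs. miR-61, known from vulval cells, had the largest difference, -1.03 (SE 0.44; limma adjusted p = 0.379). miR-71, known from neurons and intestine, had the smallest, -0.053 (SE 0.31; limma adjusted p = 0.909). miR-79 of the epidermis was at 0.87 and miR-246 of the somatic gonad at 0.54. The seam-cell miRNAs differed in sign, with miR-84 at -0.22 and let-7 at 0.14. Neither sign was shared by all miRNAs of the list.

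The profile of each tissue miRNA over the 4 biological samples was compared with those of the 93 other tested miRNAs, as the root mean square distance between log2 values centred on their own mean. The nearest to miR-1 were miR-84 of the let-7 family, at a distance of 0.025, and miR-45, at 0.12, with differences of -0.22 and -0.14. The nearest to miR-60 were miR-236 and miR-81, at 0.14 each, with differences of 0.58 and 0.57, and the centred value of miR-60 was lower than theirs in fem-2(b245ts) replicate 2. miR-48 and miR-50 were nearest to miR-124, at 0.040 and 0.077, and miR-237 and miR-259 to miR-228, at 0.037 and 0.040. The median distance to all others was 0.35 to 0.53. Among the tissue miRNAs themselves, miR-124 and miR-228 were close, at 0.12, and miR-1 and miR-60 were farthest apart, at 0.62. These distances rest on 4 samples and describe likeness on these arrays only.

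**Figure D5:**
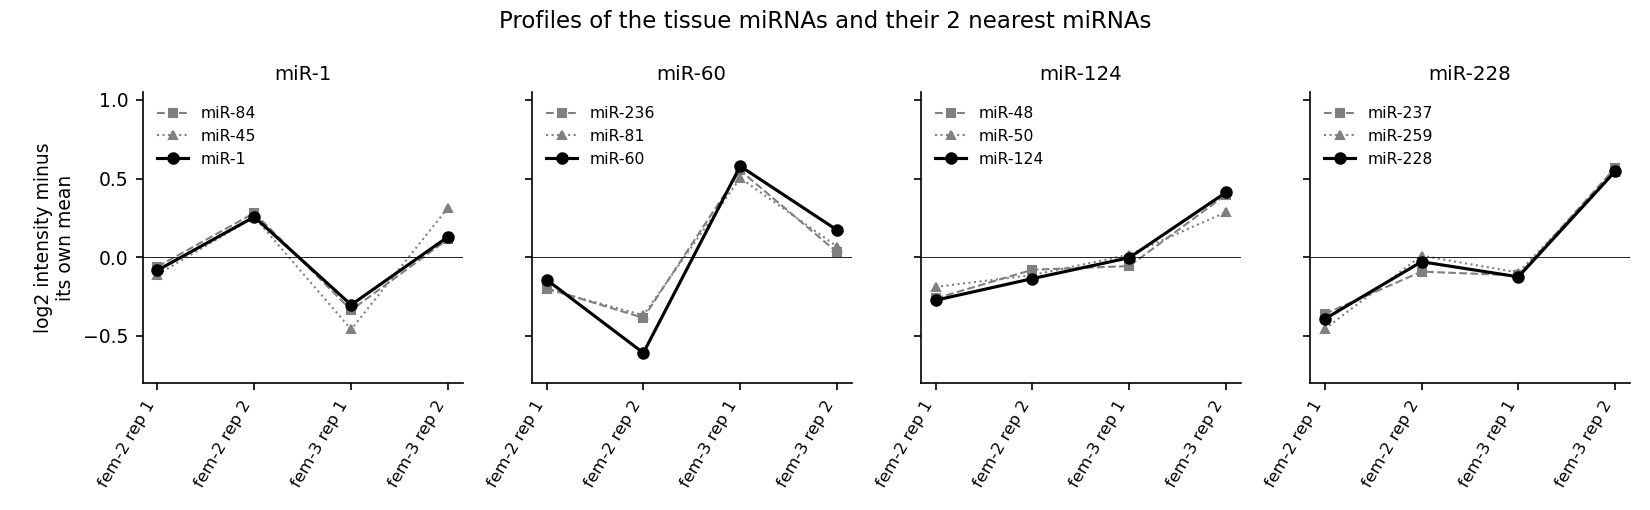
Log2 intensity minus its own mean over the 4 biological samples, for each tissue miRNA (black) and its 2 nearest miRNAs by root mean square distance (grey). miR-60 is low in fem-2(b245ts) replicate 2, at -0.61, and high in fem-3(q20ts) replicate 1, at 0.58, and miR-228 is high in fem-3(q20ts) replicate 2, at 0.55.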

How the data were processed

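Per the labels' protocols, gel-purified short RNAs were labelled by ligation of a Cy3 adaptor and hybridised to spotted arrays of 1 colour, with each oligo printed 4 times. The deposited values are linear intensity, scaled by the authors to one total per array. Scanner files were used for the 4 arrays of replicate 1. There, the scanner's own normalized intensity, before the scaling, equalled mean spot intensity minus median background to within 0.005. The signal-to-noise score and the percent of saturated pixels were read per the file headers. The spot number linked names to values. The sources used here do not give the scanner or the oligo sequences.

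A floor of 12.8 (10th percentile of positive intensities) was set before log2 values were averaged over spots and then over technical arrays. A miRNA was tested if its mean exceeded 36.5, the mean over samples of the Buffer spots' 95th percentile, averaged on the log2 scale, which kept 94 of 108. Two-sided tests used limma 3.58.1 (lmFit, eBayes; R 4.3.3) on 2 biological samples per genotype (2 residual and 3.05 prior degrees of freedom), with Benjamini-Hochberg adjustment over all 94. The labels call the replicates biological. The fit was tested on simulated data. The number of arrays limits the precision. The miRNAs and lists were chosen with earlier results of these data known. Named miRNAs were the 4 measured, their 2 nearest profiles each, and the extremes and further examples of the somatic list. miRNAs on the array that are encoded next to a chosen miRNA were named as well. Shared seeds were not examined. Alternatives changed scaling, background, floor, filter, spot summary, technical arrays, variance model, pairing and the samples used. No deposited column was left unassigned to a sample.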

Additional observations from a re-analysis of the deposited data

How the results depend on the processing

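Over 20 alternatives, 19 of them with a test, none of the 4 tissue miRNAs passed the threshold. In 4 of the 19 a biological sample is left out, 1 genotype has a single sample, assumed to vary like the other genotype's pair, and the SE is 0.749 for each of the 4 when it is fem-3(q20ts). The differences of miR-60, miR-124 and miR-228 were positive in all 20, 3 of which only move the zero point, at 0.43 to 1.31, 0.084 to 0.97 and 0.086 to 0.98. The difference of miR-1 turned positive in 3: after median centring (0.17), on the spike control (0.39) and without fem-3(q20ts) replicate 1 (0.043). Leaving out 1 biological sample gave -0.39 to 0.043 for miR-1, 0.52 to 0.98 for miR-60, 0.20 to 0.62 for miR-124 and 0.086 to 0.76 for miR-228. With a replicate block, the limma adjusted p was 0.504 for miR-1, 0.117 for miR-60, 0.231 for miR-124 and 0.231 for miR-228, 0 of the 4 passed, and 9 miRNAs passed in all. The SE of miR-1, miR-60, miR-124 and miR-228 was 0.17, 0.17, 0.18 and 0.19 with the block. In the main fit it was 0.34, 0.35, 0.32 and 0.37. The main fit did not pair samples by replicate number, since the labels do not give the meaning of the shared part of the names. Replicate 1 minus replicate 2 correlated between the genotypes at r = 0.711 across the tested miRNAs, which are not independent.

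Relative to the other miRNAs of the sample, the difference of miR-1 moved from -0.32 to -0.41 after quantile normalization, -0.22 with technical array 1 alone and -0.42 with technical array 2 alone. That of miR-124 moved from 0.26 to 0.41 after quantile normalization, and that of miR-228 from 0.28 to 0.44, which is a smaller move than the spread between its replicates. With technical array 1 alone they were 0.17 and 0.17. These alternatives were chosen after seeing the data, as was scaling on the tissue miRNAs. The count of 8 miRNAs past the threshold was 5 when only the 84 miRNAs above the detection level on every array were tested. This filter leaves out each miRNA at or below that level on any array, whether in a single genotype or in both.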

Other observations

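For miR-1 and miR-124, the measured miRNA encoded next to each was not among its nearest profiles. The neighbours of miR-60 and miR-228 had no spots under their names. Next to means neighbouring in the order of miRNA genes on a chromosome, and the distance between genes was not examined. The gene of miR-1 is next to that of miR-235 among the miRNA genes of its chromosome in the WBcel235 annotation, and miR-235, known from the epidermis, had 138 ± 64.8 in the fem-2(b245ts) group and 190.0 ± 67.1 in the fem-3(q20ts) group (SD, n = 2 each). Its log2 difference was 0.51 (limma adjusted p = 0.656), beside -0.17 for miR-1, and by profile it was number 54 of 93 in nearness to miR-1. The gene of miR-124 is next to that of miR-265, whose log2 difference was -0.62 (limma adjusted p = 0.625), beside 0.41 for miR-124, and was number 71 of 93. The genes on either side of lsy-6 are those of miR-259 and miR-268. miR-259 had 69.4 ± 16.2 and 94.7 ± 28.8 (SD, n = 2 each) with a log2 difference of 0.45 (limma adjusted p = 0.625), and miR-268 did not exceed the detection level. None of these values stands in for lsy-6.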
